A study of Mus musculus with 130 samples.

Results

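Expression after 2 days of UNC0638 was compared with that of vehicle-treated cells over every gene that reached 1 CPM in one library or the other. CPM is a read count scaled to a common library size. That rule took in 13294 of the 52550 genes in the files. UNC0638 is a small molecule that inhibits the methyltransferase activity of G9a and GLP. Both libraries came from the mouse embryonic stem cell line TT2, of strain C57BL/6xCBA and wild-type genotype. One library was titled as 250 nM inhibitor for 2 days and the other as its control, which the protocol gives as DMSO. The dose is 250 nM in the titles but 250 µM in the treatment protocol. No label says on which day the control was collected.

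G9a (gene Ehmt2) and GLP (gene Ehmt1) form a heterodimer that puts mono- and dimethylation on lysine 9 of histone H3, a mark of silent chromatin. In embryonic stem cells the complex is known for silencing germline genes, genes of the 2-cell embryo and some retrotransposons, and for a role in DNA methylation that does not need its catalytic activity. Inhibitors such as UNC0638 occupy the substrate site of the enzyme and leave the protein in place.

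The series profiled chromatin, DNA methylation and expression in mouse embryonic stem cells with lost or inhibited H3K9 or DNA methyltransferases. It holds 130 samples, of which 10 are RNA libraries with 1 library in each group. Beside the day 2 and control libraries, values are given here for the inhibitor at day 4 and day 14 and for untreated wild-type TT2 cells (WT TT2). G9a CM is clone G7, a TT2 line that lacks G9a and carries a G9a transgene with the substitutions Y1120V and Y1207F. The library labelled G9a/GLP DKO is clone 248-6 of the same background, given as G9a-/-;GLP-/-. The rest are the wild-type line J1 of strain 129S4/SvJae, its mutant Dnmt3a/3b DKO, which lacks both de novo DNA methyltransferases, and Dnmt1/3a/3b TKO, which also lacks Dnmt1. Cultures were kept on gelatin-coated plates in medium with serum and LIF, and each mutant is a single line.

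The control library held 14760140 counts and the day 2 library 18212923. With 1 library per group there was no replicate spread and no test, and every value below describes these libraries. A gene was called higher or lower when log2(CPM + 1) differed by at least 1 and the exact 95% interval of the count ratio excluded 1. Those intervals cover counting error only, since there is 1 library per group. The libraries carry no molecular identifiers, so amplified copies cannot be told from separate molecules and the intervals may be too narrow. The embryonic stem cell markers Pou5f1, Sox2, Nanog, Zfp42 and Esrrb summed to 2780 CPM in the control and 2531 CPM on day 2. The 7 fibroblast markers summed to 10.0 and 9.06 CPM, with 1 of them at 0 counts in the control and 3 on day 2. Markers of trophoblast summed to 4.63 and 4.33 CPM, of primitive endoderm to 7.28 and 5.44 CPM, of mesoderm to 6.47 and 4.73 CPM, and of neural cells to 177 and 128 CPM. Nearly all of the neural sum was the tubulin gene Tubb3, at 167 and 121 CPM.

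Transcripts of the targeted enzymes were present in both libraries. Ehmt2 stood at 77.3 CPM in the control (95% counting interval 72.7 to 82.1), 59.3 CPM on day 2, 81.1 CPM on day 4 and 63.9 CPM on day 14. Ehmt1 stood at 51.0, 58.9, 47.7 and 43.7 CPM in the same order. Neither gene was called on day 2, when Ehmt2 was 1.30-fold lower and Ehmt1 1.16-fold higher than in the control. Neither transcript level measures enzyme activity.

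Between day 2 and the control, 396 genes were called higher and 256 lower, which is 2.98% and 1.93% of the measured genes. The median log2 difference over all measured genes was -0.01, with a standard deviation of 0.50, and 95.1% of genes lay within 2-fold. Among the 8284 genes that reached 10 CPM in one of the libraries, 125 were higher (1.51%) and 187 lower (2.26%). Many of the higher genes were scarce in the control, where 145 of the 396 lay under 1 CPM. The balance between the directions also moved with scaling. Scaling by total count gave 710 higher and 144 lower genes, and the authors' TPM gave 658 and 155. The median over all genes was 0.21 and 0.22 under these scalings. At the threshold of 1 CPM, Gm29776, Hist1h2be and Gm5182 lay just inside at 1.01 CPM in the higher library. Just outside, at 0.96 CPM, lay Gm6457, Shisa7 and Lipo2.

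**Figure D1:**
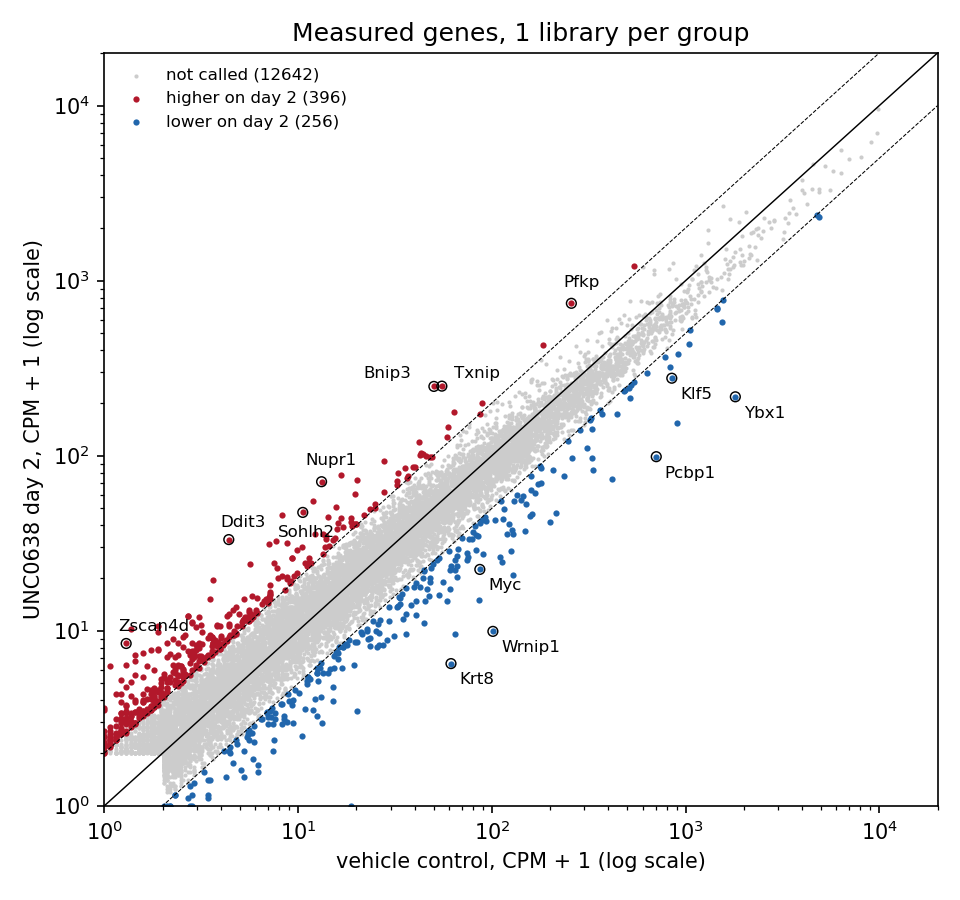
Level of each measured gene in the control (x axis) and on day 2 (y axis), as CPM + 1 on log scales, with 1 point per gene. The solid line marks equal levels and the dashed lines a 2-fold difference. The 396 genes called higher (red) sit largely at the low end of the control axis, and the 256 called lower (blue) reach up to the levels of Hspa8 and mt-Nd1.

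Genes of the Atf4 and amino acid response were among the largest differences on the higher side. Atf4 is the transcription factor at the centre of this response, which cells switch on when amino acids run short or unfolded protein builds up. Of 30 measured genes of the Atf4 list, 8 were higher and 0 were lower, and the list median was 0.62. Ddit3, which encodes the stress transcription factor Chop, had the largest difference among genes called higher. It stood at 3.38 CPM in the control, 32.2 CPM on day 2, 1.22 CPM on day 4 and 4.52 CPM on day 14. Only the day 2 library was high among these 4, at 9.50-fold over the control (95% interval 7.04 to 13.1). Nupr1, a small stress-induced chromatin protein, stood at 12.2, 70.0, 6.23 and 6.88 CPM in the same order, and was 5.73-fold higher on day 2. Chac1, which degrades glutathione, stood at 40.8, 118, 3.85 and 9.42 CPM, so that day 2 was highest and both later libraries lay below the control. Ddit4, an inhibitor of mTORC1, stood at 15.7, 76.7, 8.24 and 17.9 CPM. Vldlr, a lipoprotein receptor, stood at 1.62, 8.46, 0.79 and 1.49 CPM. Gdf15, Stc2 and Pck2 were the other 3 called members.

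Other members of the Atf4 list lay under the call threshold. Atf4 itself stood at 215 CPM in the control and 308 CPM on day 2, a 1.43-fold difference. Asns, the asparagine synthetase, was 1.98-fold higher and Trib3, a pseudokinase induced by Chop, also 1.98-fold. By contrast, in the list of endoplasmic reticulum stress genes, mostly chaperones and folding factors, 0 of 21 genes were higher, 1, Edem1, was lower and the median was -0.21. That median was 0.03 with scaling by total count and 0.08 with TPM. Hspa5, the main chaperone of that compartment, stood at 1077 CPM in the control and 618 CPM on day 2. Herpud1, a component of the degradation machinery, stood at 75.2 and 151 CPM and missed the call at a log2 difference of 0.99. In the heat shock list 1 of 17 genes was lower, Hspa8 at 4901 and 2321 CPM, and the median was -0.52. The calls of Edem1 and Hspa8 were lost with scaling by total count (-0.84 and -0.83) and with TPM (-0.11 and -0.75).

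Hypoxia-inducible genes made up the list with the largest share of called genes outside the early-embryo families. These are targets of the oxygen-regulated factor Hif1, and 10 of 20 measured members were higher, 0 were lower, and the median was 0.99. Bnip3, a mitophagy receptor, stood at 49.2 CPM in the control, 248 CPM on day 2, 37.6 CPM on day 4 and 62.7 CPM on day 14. Ndrg1, a stress-responsive gene, stood at 19.05, 71.8, 17.9 and 28.9 CPM. P4ha1, a collagen prolyl hydroxylase, stood at 18.8, 59.6, 18.9 and 28.9 CPM. In each of these 3 genes day 2 was the highest of the 4 libraries, and day 4 lay within 1.5-fold of the control. Ddit4 is on this list as well as on the Atf4 list. Adm, Ankrd37, Egln1, Egln3, Ero1l and P4ha2 were the other called members, and Hif1a itself stood at 165 and 153 CPM. The median level of the 20 genes was 18.8 CPM in the control, 18.4 CPM on day 4 and 28.9 CPM on day 14, all below its day 2 level.

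Glycolysis moved less than the hypoxia list, with 2 of 20 genes higher and a median of 0.44. Pfkp, the platelet-type phosphofructokinase, stood at 256, 741, 277 and 298 CPM in the control and on days 2, 4 and 14. Aldoc, an aldolase, stood at 35.9, 75.3, 26.1 and 36.2 CPM. Day 2 was again the highest library for both. The glucose transporter Slc2a3 reached 2671 CPM on day 2 from 1557 CPM, under the call threshold, and the lactate dehydrogenase Ldha stood at 4558 and 4628 CPM. Outside the lists, Txnip, an inhibitor of glucose uptake, stood at 54.2, 249, 41.3 and 40.4 CPM. Bhlhe40, a transcriptional repressor, stood at 7.21, 45.0, 4.33 and 19.5 CPM. Tsc22d3, a glucocorticoid-induced leucine zipper gene, stood at 6.69, 31.4, 4.76 and 5.51 CPM, and A2m, a protease inhibitor, at 6.03, 30.4, 7.20 and 9.66 CPM. Day 2 was the highest of the 4 libraries for each of these genes, and Bhlhe40 was above the control on day 14 as well. Genes named from the lists and from the largest differences were mostly picked by their day 2 difference. That choice favours day 2 as the extreme of the 4 libraries.

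Untreated WT TT2 cells lay near the vehicle control for some of these genes and far from it for others. Txnip stood at 51.6 CPM in WT TT2, P4ha1 at 19.16 CPM, Aldoc at 33.7 CPM and A2m at 5.40 CPM, each within 1.5-fold of the control. Ddit3 stood at 40.1 CPM in WT TT2, Nupr1 at 147 CPM and Bnip3 at 188 CPM, near or above their day 2 levels. Ddit4 stood there at 1.48 CPM and Ndrg1 at 7.54 CPM, below the control. For Ddit3 and Nupr1 the gap between WT TT2 and the vehicle control, both without inhibitor, was larger than that between day 2 and the control. WT TT2 also stood at 13.1 CPM of Pou5f1, against 456 CPM in the vehicle control. What set these wild-type libraries apart was not tested.

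The promoters of 4 stress genes, which hold the letters known as targets of the 2 regulators, are printed first. They were taken from RefSeq on GRCm38.p6 and run from 250 bases before to 50 after the start, each 5′ to 3′ on the gene's strand. Chac1 lies at chr2:119350992-119351291 on the plus strand and Nupr1 at chr7:126625421-126625720 on the minus strand. Capitals mark TGATGCAA or its reverse complement, the core of the C/EBP-Atf response element that Atf4 binds.
Chac1: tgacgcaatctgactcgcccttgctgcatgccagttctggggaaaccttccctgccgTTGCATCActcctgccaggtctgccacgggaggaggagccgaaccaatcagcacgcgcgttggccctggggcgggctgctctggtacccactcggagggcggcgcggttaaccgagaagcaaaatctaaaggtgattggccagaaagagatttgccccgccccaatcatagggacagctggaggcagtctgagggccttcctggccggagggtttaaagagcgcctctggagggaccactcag
Nupr1: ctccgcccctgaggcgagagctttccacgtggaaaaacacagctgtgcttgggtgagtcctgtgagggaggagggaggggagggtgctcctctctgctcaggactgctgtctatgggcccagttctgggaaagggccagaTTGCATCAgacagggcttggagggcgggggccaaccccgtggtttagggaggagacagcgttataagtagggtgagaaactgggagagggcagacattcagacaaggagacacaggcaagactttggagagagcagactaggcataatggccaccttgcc
Bnip3 lies at chr7:138909457-138909756 on the minus strand and P4ha1 at chr10:59323046-59323345 on the plus strand. Capitals mark ACGTG on either strand, the core of the hypoxia response element.
Bnip3: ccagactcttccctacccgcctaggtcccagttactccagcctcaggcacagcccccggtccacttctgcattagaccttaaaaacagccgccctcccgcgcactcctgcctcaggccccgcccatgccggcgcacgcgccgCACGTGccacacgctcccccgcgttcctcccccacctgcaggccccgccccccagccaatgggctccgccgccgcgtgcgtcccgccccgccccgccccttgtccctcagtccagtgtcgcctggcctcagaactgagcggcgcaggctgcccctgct
P4ha1: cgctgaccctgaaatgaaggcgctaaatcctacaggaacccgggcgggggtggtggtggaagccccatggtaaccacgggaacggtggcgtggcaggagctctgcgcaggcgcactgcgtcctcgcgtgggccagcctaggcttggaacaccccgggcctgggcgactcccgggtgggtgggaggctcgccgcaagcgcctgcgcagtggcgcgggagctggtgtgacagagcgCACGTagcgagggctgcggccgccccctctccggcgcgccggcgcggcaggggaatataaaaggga
These 4 were chosen after their values were seen, because they were called higher and hold the letters.

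TGATGCAA on either strand was in 4 of 25 promoters of the Atf4 list, or 16.0%, against 0.627% of the 10046 promoters of measured genes and 0.929% of all 27025 promoters. Among the called members 2 of 8 held it. ACGTG was in 12 of 17 promoters of the hypoxia list, or 70.6%, against 26.1% of measured genes and 19.7% of all. Among the called members that have a promoter listed, 7 of 8 held it. ACGTG is contained in the 6-letter E-box CACGTG, which reads the same on both strands and is what Bnip3 holds. Over all genes called higher, 2.38% held TGATGCAA and 22.4% held ACGTG, so ACGTG was no more common among them than among measured genes. The lists are made of known targets, and a match is a run of letters, not a site shown to be bound.

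Genes of the 2-cell embryo that were called higher on day 2 were scarce. This program runs at zygotic genome activation and in a small, changing fraction of embryonic stem cells. Of 12 measured genes on its list 10 were higher, 0 were lower, and the median was 1.47. Only 1 of the 12 reached 1 CPM in the control, and it was the 1 gene with a difference below 0, at -0.44. All of the others could be measured only by being higher on day 2, so this count and median carry no weight of their own. Summed over the 28 genes matched, the level was 127 CPM in the control and 133 CPM on day 2. With no minimum, the interval of the ratio lay above 1 for 15 of the 28 genes matched and below 1 for 1, against 17.3% and 19.5% of the 22321 genes with any count. Zscan4d, a telomere-associated zinc finger gene, stood at 0.29 CPM in the control, 7.45 CPM on day 2, 15.7 CPM on day 4 and 138 CPM on day 14. Usp17lb, a deubiquitinase gene, stood at 0.15, 3.37, 8.48 and 51.4 CPM. Both were lowest in the control and highest on day 14. In bulk RNA, more cells in that state and more RNA per cell cannot be told apart. The control counts were 4 and 2 reads, so the folds of 25.3 (interval 9.68 to 94.1) and 22.9 (6.10 to 193) are imprecise. WT TT2 held 0.66 CPM of Zscan4d and 0.08 CPM of Usp17lb, close to the control. Members of such families are nearly identical, so how reads were shared among them is uncertain.

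Genes called higher also lay side by side in the genome. The longest run of called neighbours, counted among measured genes, was 7 on chromosome 12 between 87479986 and 88321762. It held Gm18983, Gm8300, Gm21939, Gm1995, Gm2016, Gm5662 and Gm5039. Gm5662 stood at 0.37 CPM in the control, 9.26 CPM on day 2, 15.9 CPM on day 4 and 133 CPM on day 14. Gm8300 stood at 0.44, 5.74, 10.1 and 82.6 CPM. Gm1995 and Gm18983 had 0 counts in the control and were each at least 5.25-fold higher on day 2. The next run was 6 members of the Zscan4 cluster on chromosome 7 between 10794241 and 11614112. Usp17le, Usp17lb and Usp17la formed a run of 3 on chromosome 7, and Pramel7 and Pramel6 were neighbours on chromosome 2. The neighbouring genes in these runs resemble each other in sequence and are not independent measurements. Members under 1 CPM in the control could be counted only by being higher on day 2, and unmeasured genes between them were skipped. The runs therefore carry no weight of their own.

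Among preimplantation and germline families, Pramel and Nlrp4 genes gave 4 higher and 0 lower of 8 measured, with a median of 0.96. Pramel6, a leucine-rich repeat gene of the early embryo, stood at 0.88, 6.89, 27.5 and 48.9 CPM in the control and on days 2, 4 and 14. Pramel7 stood at 0.88, 2.97, 7.45 and 11.4 CPM. Nlrp4c, a NOD-like receptor gene of the oocyte, stood at 0.66, 5.28, 7.87 and 12.5 CPM. All 3 were lowest in the control and highest on day 14. On the X chromosome, 2 of 6 Xlr genes (Xlr3b and Xlr3c) and 1 of 7 Rhox genes (Rhox2a) were higher, 0 were lower, with medians of 0.95 and 0.89. Xlr3b stood at 1.77, 6.29, 10.4 and 19.8 CPM. Rhox2a stood at 0.07 CPM in the control, which was 1 read, and 1.16 CPM on day 2. Pramel6, Pramel7, Nlrp4c, Xlr3c and Rhox2a lay under 1 CPM in the control and were measured only because they were higher on day 2, so these counts and medians carry no weight of their own. With no minimum, the interval of the ratio lay above 1 for 6 of 22 Pramel and Nlrp4 genes, 6 of 12 Xlr genes and 6 of 25 Rhox genes, and below 1 for 1, 0 and 2 of them. The background for those tallies is the 17.3% above and 19.5% below given for the 2-cell genes.

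Germline genes gave 8 higher and 0 lower of 37 measured, with a median of 0.52 and 33 of 37 above 0. Sohlh2, a transcription factor of early germ cells that is not on the list, was the clearest case at a moderate level. It stood at 9.56 CPM in the control, 46.4 CPM on day 2, 53.9 CPM on day 4 and 56.6 CPM on day 14. The 3 treated libraries lay together above the control, and WT TT2 lay at 9.72 CPM. Cyct, the testis cytochrome c, stood at 4.63, 23.1, 18.0 and 13.5 CPM in the same order, and Rpl39l, a testis ribosomal protein gene, at 6.55, 23.3, 27.5 and 21.7 CPM. Both were higher still in WT TT2, at 34.4 and 44.3 CPM. Tex19.2, a germ cell gene, stood at 4.27, 14.2, 20.2 and 20.1 CPM, with WT TT2 at 1.07 CPM. Stra8, the gatekeeper of meiosis, stood at 8.31, 25.2, 7.39 and 45.7 CPM, so day 4 was near the control. Smc1b, Asz1, Mov10l1 and Tex101 were the other called members. The germ cell marker Ddx4 stood at 29.4 and 26.9 CPM and was not called.

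The promoters of 2 called germline genes are printed because they hold the E-box CACGTG or the E2F letters TCCCGC, both known from the regulation of such genes by the complex that contains G9a and the repressor E2f6. They were chosen after the values were seen. Mov10l1, a helicase of the piRNA pathway, lies at chr15:88982744-88983043 on the plus strand. Cyct lies at chr2:76360404-76360703 on the minus strand. Capitals mark CACGTG in Mov10l1, and TCCCGC on either strand in Cyct.
Mov10l1: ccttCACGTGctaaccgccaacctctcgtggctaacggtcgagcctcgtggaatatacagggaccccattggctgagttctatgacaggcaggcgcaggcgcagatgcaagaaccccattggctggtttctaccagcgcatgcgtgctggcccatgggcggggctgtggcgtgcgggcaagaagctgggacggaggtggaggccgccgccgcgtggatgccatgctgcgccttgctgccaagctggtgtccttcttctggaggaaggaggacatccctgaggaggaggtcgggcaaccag
Cyct: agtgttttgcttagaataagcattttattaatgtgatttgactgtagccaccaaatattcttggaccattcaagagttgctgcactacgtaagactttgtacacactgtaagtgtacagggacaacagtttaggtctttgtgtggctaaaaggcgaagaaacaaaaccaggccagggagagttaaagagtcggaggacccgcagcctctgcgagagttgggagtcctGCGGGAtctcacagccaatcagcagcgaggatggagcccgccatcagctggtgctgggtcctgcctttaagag
CACGTG was in 14 of 34 germline promoters, or 41.2%, against 10.6% of measured genes and 7.24% of all. Only 1 of the 8 called germline genes held it. TCCCGC was in 18 of 34, or 52.9%, against 36.5% of measured genes and 20.0% of all, and 2 of the 8 called genes held it.

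**Figure D2:**
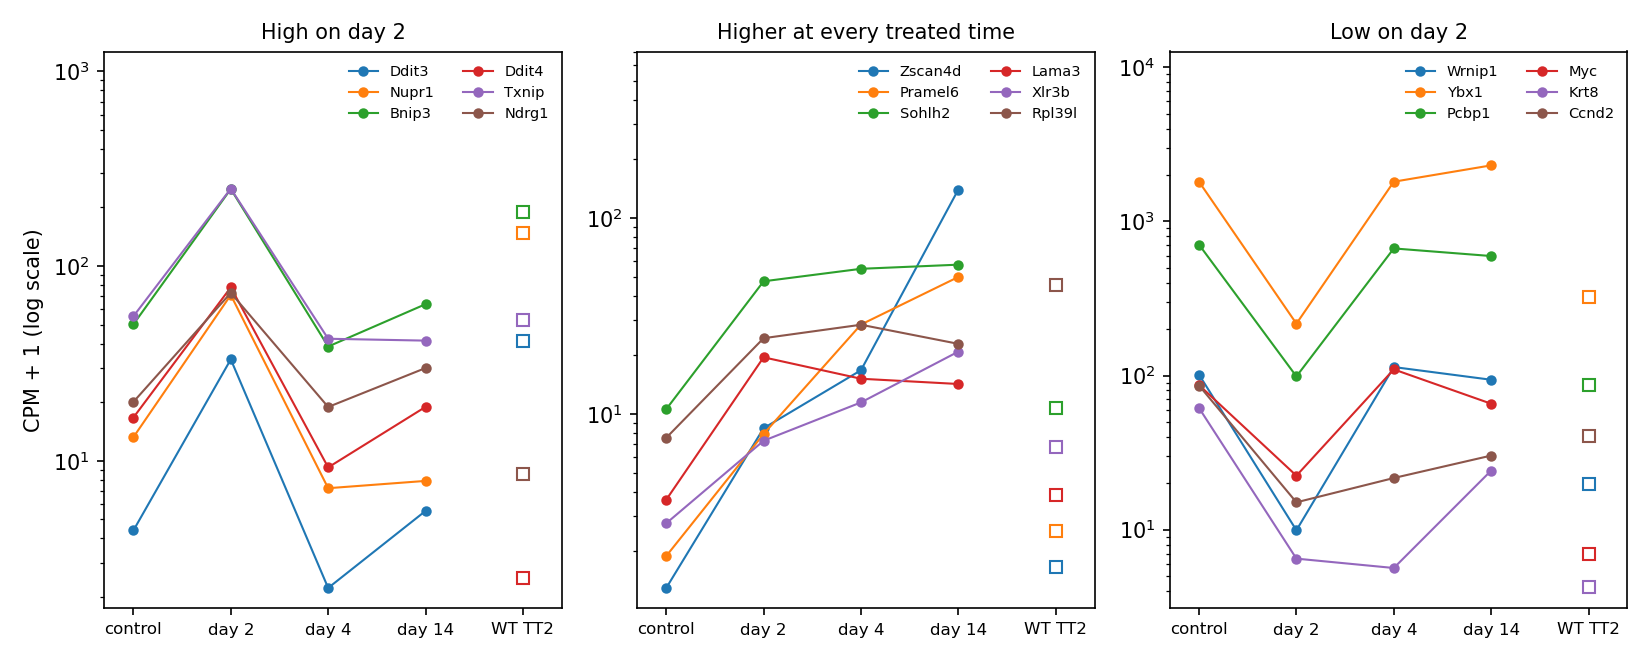
CPM + 1 on a log scale for 18 genes in the control, the 3 inhibitor libraries and, as open squares, untreated WT TT2, with 1 library per point and lines joining a gene's values. Among the control and inhibitor libraries, Ddit3, Nupr1 and Bnip3 were highest on day 2, and Zscan4d and Pramel6 on day 14. Wrnip1, Ybx1 and Pcbp1 were lowest on day 2 among them.

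A small set of genes outside these families was also high in all 3 treated libraries. Lama3, a laminin chain, stood at 2.65 CPM in the control and at 18.4, 14.1 and 13.2 CPM on days 2, 4 and 14. Nckap1l, an actin regulator of blood cells, stood at 1.69, 11.2, 14.5 and 16.7 CPM, and Cd6, a lymphocyte receptor gene, at 2.06, 10.9, 12.1 and 8.43 CPM. Crxos, a homeobox gene of the early embryo, stood at 1.84, 10.2, 10.0 and 11.2 CPM. These 4 were taken from the largest day 2 differences and grouped for staying above the control, so that pattern was fixed by the choice. In WT TT2 they stood at 2.84, 0.37, 0.49 and 4.00 CPM. Days 2, 4 and 14 share the same control library, so a low value in it raises all 3 differences together.

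The lower side held genes of growth signalling. Of 19 measured genes of the Erk response list, which are switched on by growth factors, 4 were lower, 0 were higher, and the median was -0.49. Egr1, an immediate early transcription factor, stood at 122 CPM in the control, 39.6 CPM on day 2, 79.9 CPM on day 4 and 78.5 CPM on day 14. Fos stood at 26.3, 7.30, 12.0 and 12.1 CPM, and Dusp5, a phosphatase of Erk, at 14.0, 2.97, 17.2 and 27.3 CPM. Day 2 was the lowest of the 4 libraries for all 3. Fosl1 was the other called member. Fgf4, the main Erk-activating growth factor of embryonic stem cells, stood at 119, 34.8, 167 and 115 CPM and was 3.41-fold lower on day 2. WT TT2 stood below day 2 for Egr1 (12.9 CPM), Fos (2.14 CPM) and Dusp5 (2.31 CPM), so that the direction of these 3 reversed against it. The call of Fosl1 was lost with scaling by total count and TPM.

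Myc and its targets gave 3 lower and 0 higher of 21, with a median of -0.58. Myc stood at 85.7 CPM in the control, 21.4 CPM on day 2, 109 CPM on day 4 and 64.6 CPM on day 14, a 4.01-fold difference on day 2 (interval 3.58 to 4.49). Mycn stood at 542, 261, 470 and 316 CPM. Odc1, the first enzyme of polyamine synthesis, stood at 115, 48.5, 143 and 167 CPM. Among 15 cyclins and cyclin-dependent kinase inhibitors 4 were lower and 0 higher. Ccnd2, a D-type cyclin, stood at 85.1, 14.0, 20.6 and 29.2 CPM, and remained below the control in all 3 treated libraries. Ccnd1 stood at 130, 53.8, 137 and 97.9 CPM, Ccne1 at 780, 366, 793 and 668 CPM, and the inhibitor Cdkn1c at 6.47, 1.36, 7.26 and 11.5 CPM. Those 3 were lowest on day 2. WT TT2 stood below day 2 for Myc (5.93 CPM), Mycn (81.8 CPM), Ccnd1 (48.8 CPM) and Ccne1 (262 CPM), whose direction reversed against it, and above both libraries for Odc1 (299 CPM). The calls of Mycn, Odc1 and Ccne1 were lost with scaling by total count and with TPM, and that of Ccnd1 with TPM. The proliferation list had no called gene among 25, with a median of -0.23 and 5 of 25 above 0. That median was 0.07 with TPM, against 0.22 for all genes, and -0.10 less the median of genes of like length. The counting interval of the ratio lay below 1 for 20 of the 25 and above 1 for 4. Over the 22321 genes with any count these shares were 19.5% and 17.3%, but most of those genes have fewer counts and wider intervals. Mcm5, a subunit of the replicative helicase, stood at 1239 and 815 CPM in the control and on day 2, and Pcna, the sliding clamp, at 309 and 206 CPM. Mki67, at 25.4 and 47.7 CPM, had the largest difference above 0 in the list.

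Wnt response genes gave 4 lower of 11, and these were Sp5, Cdx1, Notum and Ccnd1. Sp5, a direct target of beta-catenin, stood at 4.27, 0.45, 0.79 and 2.29 CPM in the control and on days 2, 4 and 14. Notum, a Wnt inhibitor, stood at 18.5, 5.33, 34.0 and 23.3 CPM. The TGF-beta and BMP list gave 2 lower and 1 higher of 14, with a median of -0.25. The lower genes were the inhibitors of differentiation Id3, at 149, 51.8, 205 and 120 CPM, and Id1, at 43.5, 21.1, 111 and 32.8 CPM. Day 2 was the lowest of the control and inhibitor libraries for Sp5, Notum, Id3 and Id1. The call of Id1 was lost with TMM over the 2 libraries compared (-0.98), total count (-0.77) and TPM (-0.70). The higher gene was the ligand Bmp7, at 3.82 CPM in the control and 9.66 CPM on day 2. The median of the Wnt list was -0.12 and turned to 0.01 with scaling by total count. WT TT2 stood below day 2 for Sp5 (0.12 CPM), Cdx1 (0.12 CPM), Notum (2.76 CPM) and Ccnd1 (48.8 CPM), whose direction reversed against it.

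Pluripotency genes were mixed. Of 23 naive pluripotency genes 1 was higher and 2 were lower, with a median of -0.15 that turned to 0.09 with scaling by total count and 0.16 with TPM. The lower genes were Fgf4 and Klf5, a Krüppel-like factor at 848, 276, 622 and 632 CPM. Tbx3, a T-box factor, was higher at 31.4, 70.2, 62.4 and 110 CPM. Of 14 formative and primed genes Grhl2 was higher, and Fgf5 and Utf1 were lower, the last at 1049, 523, 1037 and 803 CPM. The calls of Fgf5 and Utf1 were lost with scaling by total count and TPM. WT TT2 stood below day 2 for Klf5 (28.9 CPM) and Utf1 (171 CPM), whose direction reversed against it. Pou5f1 stood at 456, 291, 417 and 341 CPM and Nanog at 159, 126, 168 and 225 CPM, and neither was called.

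The intermediate filament genes of simple epithelia and trophoblast were lower in every treated library than in the vehicle control. Krt8 stood at 60.5 CPM in the control, 5.49 CPM on day 2, 4.64 CPM on day 4 and 23.2 CPM on day 14. Krt18, its partner, stood at 30.2, 8.30, 5.92 and 13.01 CPM, and Krt19 at 31.3, 12.6, 4.52 and 11.6 CPM. In WT TT2, Krt8, Krt18 and Krt19 stood at 3.26, 9.72 and 1.52 CPM, so the direction of Krt8 and Krt19 reversed against it. The treated libraries share the same control, so a high value in it lowers all of these differences together. Krt8 and Krt18 are neighbours on chromosome 15. Together with Gata2 they were the 4 lower members of the trophoblast list, in which Esx1 was the 1 higher gene of 13. The call of Gata2 was lost with scaling by total count and TPM. The defining trophoblast gene Cdx2 had 2 reads in the control and 1 on day 2.

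Among chromatin genes, 1 of 24 H3K9 methyltransferases and partners was called. This was Suv39h2, which trimethylates H3K9 in heterochromatin, at 34.9, 8.56, 33.0 and 47.5 CPM. Dnmt3b, a de novo DNA methyltransferase, was the 1 called gene of 14 in DNA methylation, at 512, 243, 420 and 285 CPM. Its call was lost with scaling by total count (-0.83) and TPM (-0.74), and its direction reversed against WT TT2, at 107 CPM. Dnmt1 stood at 153 and 187 CPM and Dnmt3a at 208 and 158 CPM in the control and on day 2. None of 10 H3K9 demethylase genes was called, and 9 of them had a difference above 0. The largest was Kdm4c at 39.0 and 73.3 CPM. The list median was 0.42, against -0.01 for all genes, but these transcripts are long, with a median effective length of 3892 bases. Less the median of genes of like length it was 0.23, and with TPM it was 0.39, against 0.22 for all genes. Of 40 imprinted genes 1 was higher, Grb10, and 5 were lower, namely Cdkn1c, Meg3, Mest, Phlda2 and Snrpn. Mest stood at 442, 172, 369 and 413 CPM, Phlda2 at 92.0, 41.4, 68.9 and 42.7 CPM, and the lncRNA Meg3 at 8.46, 3.02, 4.64 and 12.0 CPM. With TPM the calls of Phlda2 and Meg3 were lost, and that of Phlda2 was also lost with scaling by total count.

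**Figure D3:**
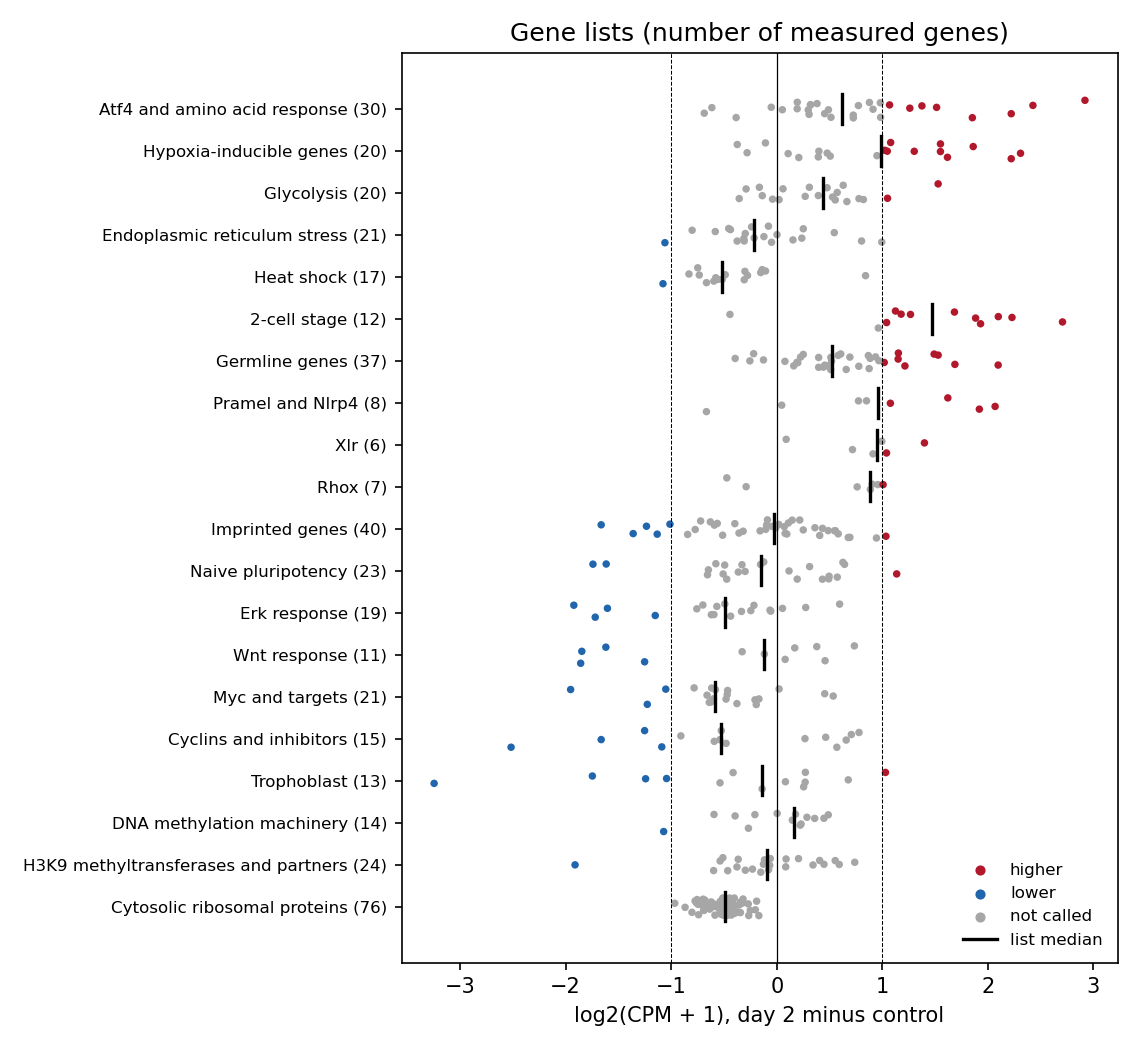
Difference in log2(CPM + 1), day 2 minus control, for each measured gene of 20 lists, with 1 point per gene and a black bar at the list median. Dashed lines mark the threshold of 1 in each direction. The medians of the hypoxia (0.99), Pramel and Nlrp4 (0.96) and 2-cell (1.47) lists lie near or beyond the upper line, and that of the Myc list (-0.58) lies on the lower side. Genes under 1 CPM in the control enter a list only by being higher on day 2, which fixes most of the 2-cell points above 0.

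The largest differences on the lower side belonged to genes of no single pathway. Most of them were low on day 2 alone among the control and inhibitor libraries. They were picked by their day 2 difference, which favours that pattern. Wrnip1, a DNA repair ATPase, stood at 100 CPM in the control, 8.91 CPM on day 2, 112 CPM on day 4 and 92.9 CPM on day 14. Ybx1, an abundant RNA-binding protein gene, stood at 1807, 216, 1808 and 2308 CPM. Pcbp1, a poly(C)-binding protein gene, stood at 705, 97.7, 667 and 595 CPM. The control, day 4 and day 14 agreed within 1.5-fold for each of these 3, and day 2 was 11.3-, 8.37- and 7.22-fold below the control. Srsf2, a splicing factor, stood at 901, 152, 873 and 932 CPM. Riox1, a ribosomal oxygenase, stood at 63.6, 8.56, 71.4 and 59.0 CPM. Gclm, a subunit of glutathione synthesis, stood at 128, 19.9, 131 and 127 CPM. Psme3, Nrtn, Hnrnpll, Tcf3, Ina, Tlnrd1 and Noct were likewise lowest on day 2, between 4.52- and 7.78-fold below the control.

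WT TT2 was also low for many of these genes. Wrnip1 stood there at 18.7 CPM, Ybx1 at 320 CPM, Pcbp1 at 85.3 CPM, Tcf3 at 13.6 CPM and Krt8 at 3.26 CPM. Over the 256 lower genes, WT TT2 lay nearer to day 2 than to the control in 159, or 62.1%, against 49.6% of all measured genes. Over the 396 higher genes it lay nearer to day 2 in 127, or 32.1%. The part of the inhibitor in these low values was not tested. With WT TT2 in place of the vehicle control, 3454 genes were higher and 3195 lower on day 2, of which 216 and 82 were among the genes called against the control.

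Of 279 measured lncRNA genes 16 were higher (5.73%) and 10 lower (3.58%), against 2.88% and 1.83% of protein-coding genes. Rpph1, the RNA of ribonuclease P, stood at 10.96, 54.0, 21.2 and 25.2 CPM in the control and on days 2, 4 and 14, with 178 CPM in WT TT2. The lncRNA Gm20605 stood at 46.6, 14.8, 26.9 and 28.0 CPM, and at 5.98 CPM in WT TT2, against which its direction reversed. The lncRNA Eprn stood at 31.6, 12.9, 45.5 and 36.9 CPM, a call that was lost with TPM. AY036118 had 242 counts in the control and 0 on day 2, at least 118-fold lower, but the authors' posterior SD of its control count was 42.7% of the count, so its assignment of reads is uncertain. AY036118 also had 0 counts in both G9a mutant libraries and stood at 49.5 CPM in WT TT2.

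The day 2 difference followed the length of the transcript. Over 8283 genes with at least 10 CPM, the Spearman correlation across genes between the difference and the effective length was 0.37, against 0.11 for day 4 and 0.22 for day 14. Genes of 1 pair of libraries share their depth and preparation and are not independent. The median difference was -0.34 in the shortest decile of transcripts and 0.25 in the longest on day 2. On day 4 these medians were -0.02 and 0.11, and on day 14 they were -0.22 and 0.03. Differences also followed level, with medians of 0.22 in the lowest decile and -0.33 in the highest. By genomic span, the shortest decile of genes, up to 4370 bases, held 46 lower and 15 higher genes of 824, and the longest decile held 8 lower and 27 higher. The median span was 10647 bases for lower genes, 39466.5 bases for higher genes and 21887 bases for all genes at that level.

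**Figure D4:**
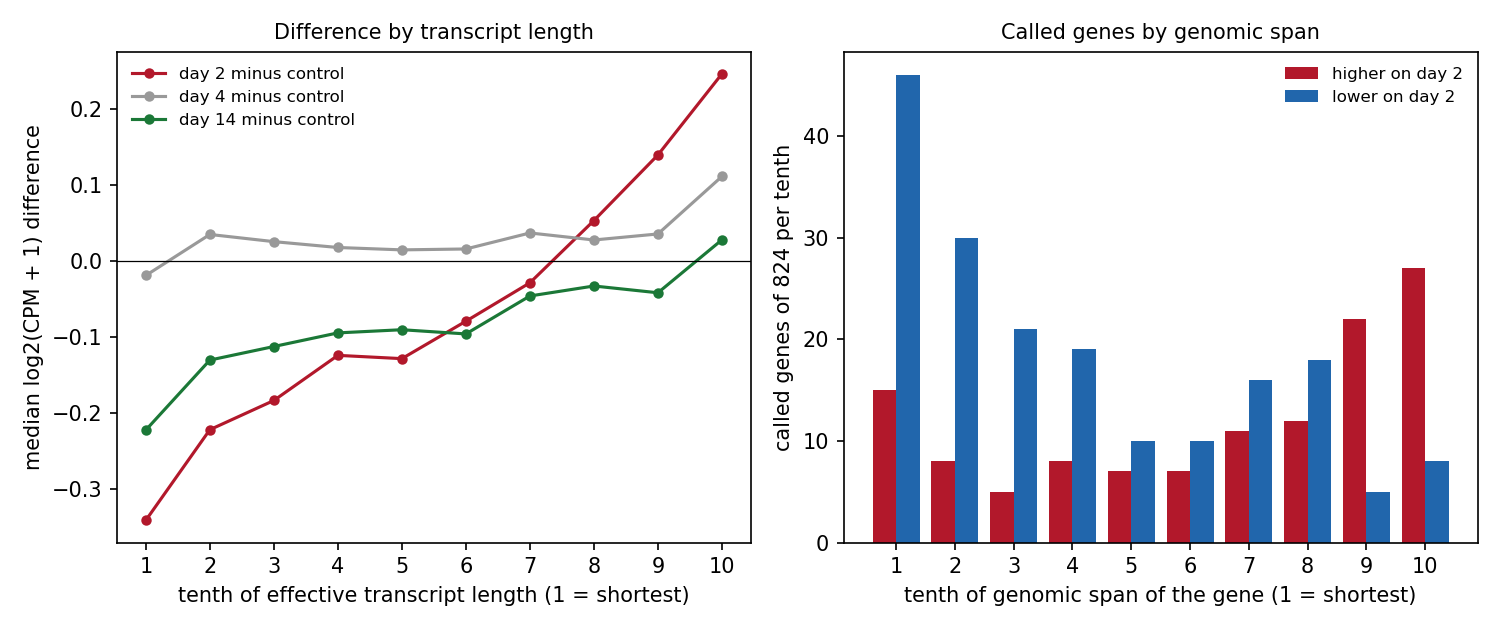
Left, median difference in log2(CPM + 1) from the control for days 2, 4 and 14 by decile of effective transcript length. Right, number of genes called higher (red) or lower (blue) on day 2 by decile of genomic span, with 824 genes per decile. The day 2 medians run from -0.34 to 0.25, and 46 of the lower genes fall in the shortest span decile against 8 in the longest.

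Groups of short, abundant transcripts were low. All 76 cytosolic ribosomal protein genes had differences below 0, with a median of -0.49, and none was called. Their median effective length was 411 bases, and less the median of their length decile the difference was -0.16. With TPM the median of these genes was -0.14, against 0.22 for all genes. Of 32 nuclear oxidative phosphorylation genes 0 were called, with a median of -0.21 that turned to 0.05 after that subtraction. Mitochondrially encoded genes gave 1 lower of 7, mt-Nd1, and a median of -0.59, and the mitochondrial share of counts was 1.44% in the control and 1.12% on day 2. The call of mt-Nd1 was lost with TMM over the 2 libraries compared, total count and TPM. For the lists that led the results the subtraction changed less. The median became 0.79 for hypoxia, 0.57 for Atf4, 0.65 for germline, 1.58 for the 2-cell list, -0.42 for Myc and -0.44 for Erk. Only length was subtracted, and the trend with level was not removed from these medians. The Myc list had a median level of 375 CPM in the control and the germline list 6.55 CPM. The 2-cell value still rests on genes measured only by being higher on day 2.

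Genes called on day 2 were also looked up in the mutant lines, whose libraries share none with the inhibitor comparison. Of 345 genes that were higher on day 2 and measured in both comparisons, 119, or 34.5%, exceeded WT TT2 in the clone labelled G9a/GLP DKO, against 6.23% of all genes measured in both. In reverse, these 119 were 15.4% of the 773 genes higher in that library. For G9a CM the shared genes were 98 of 342, or 28.7%, against 4.08%. Genes higher on day 2 also recurred as higher in lines without DNA methyltransferases. Whether they were the same genes in each line was not counted. There 94 of 305 (30.8%, background 9.38%) were higher in Dnmt3a/3b DKO and 103 of 313 (32.9%, background 10.4%) in Dnmt1/3a/3b TKO, with WT J1 as their reference. Genes higher on day 2 were also lower there above background, at 41 of 305 (13.4%, background 8.51%) and 64 of 313 (20.4%, background 9.63%). Their lower shares were 29 of 345 (8.41%, background 8.18%) in the clone labelled G9a/GLP DKO and 23 of 342 (6.73%, background 5.68%) in G9a CM. Of the genes lower on day 2, 20 of 234 (8.55%, background 8.18%) were lower in the clone labelled G9a/GLP DKO and 11 of 232 (4.74%, background 5.68%) in G9a CM. In Dnmt3a/3b DKO 13 of 231 were lower (5.63%, background 8.51%) and in Dnmt1/3a/3b TKO 14 of 230 (6.09%, background 9.63%). More of them were higher, at 25 of 234 (10.7%, background 6.23%), 26 of 232 (11.2%, background 4.08%), 40 of 231 (17.3%, background 9.38%) and 53 of 230 (23.0%, background 10.4%) in the same order.

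Part of that recurrence rests on genes near 0 in wild-type cells, which can be measured in either comparison only by being higher. Among genes at 1 CPM or more in both control libraries, 48 of 222 day 2 genes (21.6%, background 4.84%) exceeded WT TT2 in the clone labelled G9a/GLP DKO and 37 of 222 (16.7%, background 3.13%) in G9a CM. In Dnmt3a/3b DKO 28 of 186 were higher (15.1%, background 7.51%) and in Dnmt1/3a/3b TKO 25 of 186 (13.4%, background 8.11%). In these lines more of the day 2 genes were lower than higher, at 35 of 186 (18.8%, background 8.63%) in the first and 54 of 186 (29.0%, background 9.77%) in the second. The corresponding lower shares were 24 of 222 (10.8%, background 8.42%) for the clone labelled G9a/GLP DKO and 18 of 222 (8.11%, background 5.71%) for G9a CM. Ehmt2 stood at 18.0 CPM in the clone labelled G9a/GLP DKO and 15.2 CPM in WT TT2, and Ehmt1 at 7.99 and 40.1 CPM, so the Ehmt2 transcript did not mark that library as its label would.

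**Figure D5:**
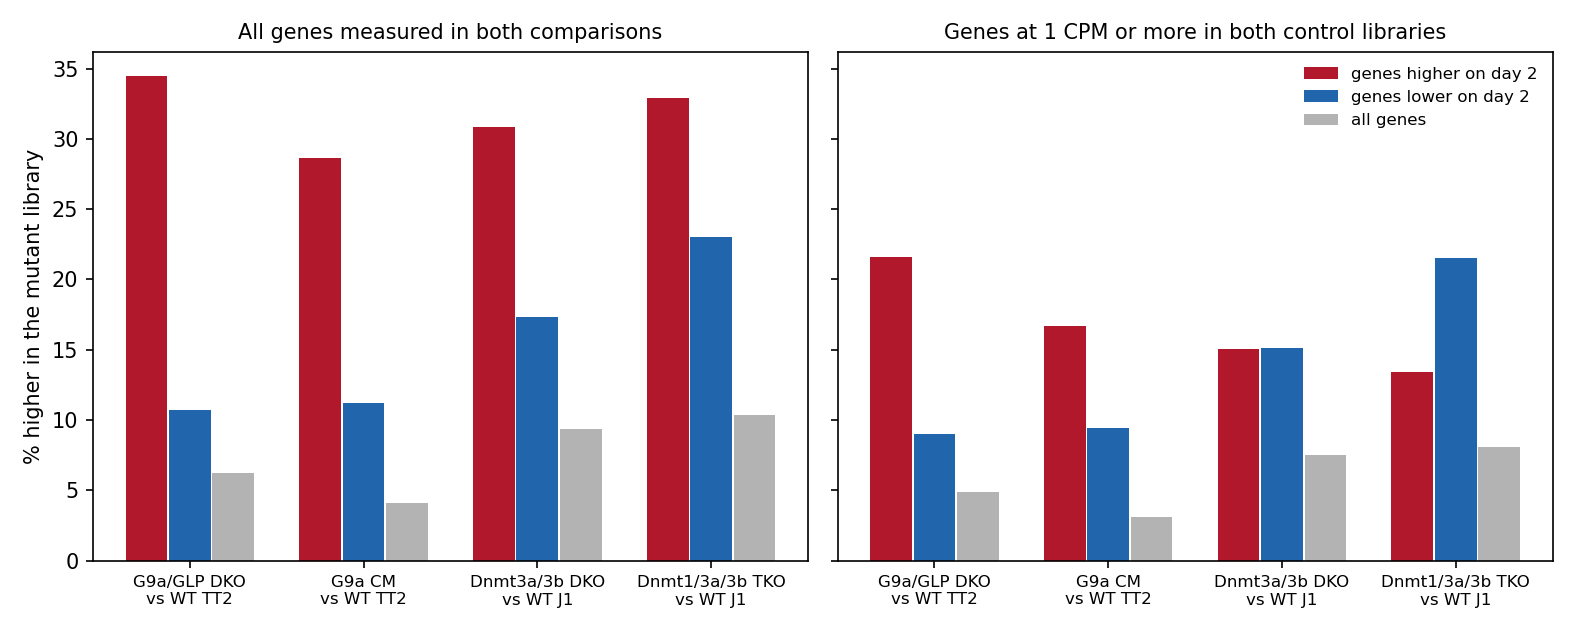
Percentage of genes higher on day 2 (red), genes lower on day 2 (blue) and all genes (grey) that were higher in each mutant library than in its wild type. The left panel uses all genes measured in both comparisons and the right panel only genes at 1 CPM or more in both control libraries. For the clone labelled G9a/GLP DKO the red bars stand at 34.5% and 21.6%, against grey bars of 6.23% and 4.84%.

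Named genes illustrate both outcomes. Pramel6 stood at 1.52 CPM in WT TT2 and 273 CPM in the clone labelled G9a/GLP DKO, Crxos at 4.00 and 59.7 CPM, and Lama3 at 2.84 and 16.8 CPM. Sohlh2 stood at 9.72 CPM in WT TT2, 15.9 CPM in G9a CM and 29.0 CPM in the clone labelled G9a/GLP DKO. These 4 were higher with inhibitor at all 3 times and higher in that mutant library. Ddit3 went the other way, at 40.1 CPM in WT TT2 and 4.83 CPM in that mutant library, and so did Nupr1, at 147 and 9.02 CPM. Tex19.2 stood at 1.07 and 2.37 CPM and Cd6 at 0.49 and 1.42 CPM, low in both.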

How the data were processed

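Expression was measured in 10 mouse embryonic stem cell RNA libraries, 1 per group. Libraries were made from total RNA by Smart-seq2, per the labels, without molecular identifiers. STAR 2.5.3a, RSEM and the build GRCm38 (mm10) are named in the submitters' processing notes. Neither the annotation release nor the use of strand in counting is given in the sources used here. Overlapping and antisense genes therefore cannot be told apart. The deposited files hold, per the file headers, expected counts, TPM, effective length and a posterior SD of the count, which is a signal of how surely reads were assigned to a gene.

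Expected counts were rounded and scaled to CPM with TMM factors over the 10 libraries (edgeR 4.0.16, R 4.3.3). A gene was measured at 1 CPM or more in either library, and differences are log2(CPM + 1). Folds are CPM ratios with no pseudocount, and against 0 counts a floor of 3 counts was used, 0.221 CPM in the control and 0.151 CPM on day 2. Calls needed a difference of 1 and a 95% interval of the count ratio that excluded 1, from the exact (Clopper-Pearson) limits of the day 2 share of both counts. These steps used Python 3.11.15 with numpy 2.4.6, pandas 2.3.3, scipy 1.17.1 and matplotlib 3.10.9. The calculation was tested on simulated data that held counting error only, so that test does not cover differences between cultures or preparations. Lists are given by counts and medians, with no set test. Symbols were found for all but 147 gene IDs. Coordinates, gene types and promoters came from RefSeq on GRCm38.p6, which held 98.3% of measured genes. Genes were named when targeted, among the 15 largest protein-coding differences each way at 10 CPM or more, the 4 largest of each list with at least 3 measured genes, the 3 largest non-coding genes each way or the 3 nearest the threshold on either side. A few other list members were chosen after their values were seen. The comparison, the lists and the rules were chosen with earlier results of these data known. The other 120 samples were not analysed here.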

Additional observations from a re-analysis of the deposited data

How the results depend on the processing

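No paired analysis was possible because each group holds 1 library and the labels carry no replicate numbers. For the same reason no library could be left out. The counts of higher and lower genes stayed within 1.5-fold of 396 and 256 with TMM over the 2 libraries compared (419 and 239), median-of-ratios size factors (330 and 309), no minimum, and without genes whose posterior SD passed 20% (389 and 247). At least one of the counts moved further under the settings that follow, the last apart. Scaling by total count gave 710 higher and 144 lower, TPM 658 and 155, a pseudocount of 0.25 gave 758 and 389, a pseudocount of 5 gave 78 and 130, and a minimum of 10 CPM gave 125 and 187, of which the lower count stayed within 1.5-fold. A size threshold of 1.5-fold gave 1536 and 1136, and one of 4-fold gave 29 and 21. Subtracting the median of each gene's length decile, a choice made after seeing the data, gave 475 and 212, of which 332 and 178 were called before.

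Against WT TT2 in place of the vehicle control the counts were 3454 and 3195. Of 104 named and called genes 45 were still called the same way, 23 kept the direction without a call and 36 reversed. The log2 differences of the reversed genes against WT TT2 were Rpph1 -1.70, Nupr1 -1.06, Hist1h1a -0.997, Rpl39l -0.90, Cyct -0.56, Abcg1 -0.46, Smc1b -0.43, Ddit3 -0.31, Tlnrd1 0.075, Ccnd1 0.14, Pcbp1 0.19, Olig2 0.24, Dusp5 0.26, Sp5 0.37, Fosl1 0.43, Ina 0.48, Ccne1 0.48, Sox7 0.50, Krt8 0.61, Notum 0.75, Hspa8 0.87, Cdx1 0.87, Gata2 0.91, Dnmt3b 1.18, Gm20605 1.18, Meg3 1.24, Fos 1.40, Gbx2 1.46, Tcf3 1.52, Egr1 1.55, Utf1 1.61, Mycn 1.66, Myc 1.69, Tfeb 1.94, Krt19 2.43, Klf5 3.21. The cause was not tested. No named gene reversed under any of the other settings, but calls were lost. Of the 104, calls lost in the same direction numbered 18 with total count, 24 with TPM, 37 with a pseudocount of 5, 5 with TMM over the 2 libraries, 5 with median-of-ratios, 71 with the 4-fold threshold and 16 after the length subtraction. Of 46 list medians 13 changed sign with scaling by total count, 12 with TPM, 17 against WT TT2 and 7 after the length subtraction. Genes under about 1 CPM in the control rest on a few reads each, and their folds are imprecise.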
